A study of Saccharomyces cerevisiae with 15 samples.

Results

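The transcript profile of xylose-grown cells was set against the equal-weight mean of glucose repressed and glucose derepressed cells, and the genes were sought whose signals on xylose lay outside everything measured on glucose. A gene was counted when all 3 xylose cultures lay above, or all 3 below, all 6 glucose samples. Of 4660 genes tested, 260 met this condition, 144 of them above and 116 below. All 9 samples of the series entered the comparison.

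The strain was the same in every group. It was S. cerevisiae VTT-C-99318, derived from CEN.PK2-1D (mating type α, carrying MAL2-8c and SUC2, with mutant alleles of his3, leu2, trp1 and ura3), with XYL1 and XYL2 of Pichia stipitis, for xylose reductase and xylitol dehydrogenase, under the PGK1 and a modified ADH1 promoter at the URA3 locus, a further copy of its own XKS1 (xylulokinase) under the modified ADH1 promoter at the HIS3 locus, and a kanMX marker. The cells grew in aerobic batch cultures on synthetic complete medium with 50 g per litre of glucose or of xylose, after precultures on glucose. Glc5h denotes cells after 5 h on glucose, with glucose still present (glucose repressed), and Glc24h denotes cells of the same cultures after 24 h, with the glucose consumed and ethanol present (glucose derepressed). Xyl72h denotes cells after 72 h on xylose. The fermentations of each sugar bear the numbers 0, 1 and 2, so that the 9 samples come from 6 cultures. A strain without the xylose pathway was not among the samples, and the sugar, the age of the culture and the rate of growth differ together between the states and cannot be told apart. As each array was scaled, a gene transcribed less and a gene whose share of a larger RNA pool was smaller cannot be told apart either.

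Wild-type S. cerevisiae hardly uses xylose. In the recombinant route xylose is reduced to xylitol, mainly with NADPH, oxidised to xylulose with NAD+ and phosphorylated by xylulokinase, after which the non-oxidative pentose phosphate pathway joins it to glycolysis. Glucose represses genes for the use of other carbon sources and for respiration, and this repression ends when the glucose is consumed.

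Signals are linear array intensities, scaled to the same 75th percentile on every array, with values under a floor of 16 set to 16, and they are given below in the order of fermentations 0, 1 and 2. Differences are on the log2 scale, Xyl72h minus the mean of Glc5h and Glc24h, and adjusted p-values are from limma over all 5877 probe sets tested. At an adjusted p under 0.05, 189 genes (4.06% of 4660) were higher on xylose and 169 (3.63%) lower. Separation above held for 3.09% of the genes tested and separation below for 2.49%. Both conditions were met by 101 genes above (2.17%) and by 65 below (1.39%), and these 166 genes are described here. Separation and the test read the same 9 values, so the one is no independent support for the other. Of the 101, 48 also passed against each glucose state by itself, 42 against Glc5h only and 11 against Glc24h only, and of the 65 the numbers were 20, 41 and 4. The 88 genes called higher whose samples overlapped included 78 that were called higher in Glc24h than in Glc5h (15.8% of all genes tested). Of the 104 called lower whose samples overlapped, 84 were called lower in Glc24h than in Glc5h (20.9% of all genes tested). Genes with a wide spread between the glucose states overlap more easily, so these counts follow in part from the rule. The separated genes without a call numbered 43 above and 51 below, with differences of 0.02 to 1.87 and 0.24 to 2.01 and adjusted p-values from 0.0503. A further 996 named genes were at the floor on every array and could not be placed.

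**Figure D1:**
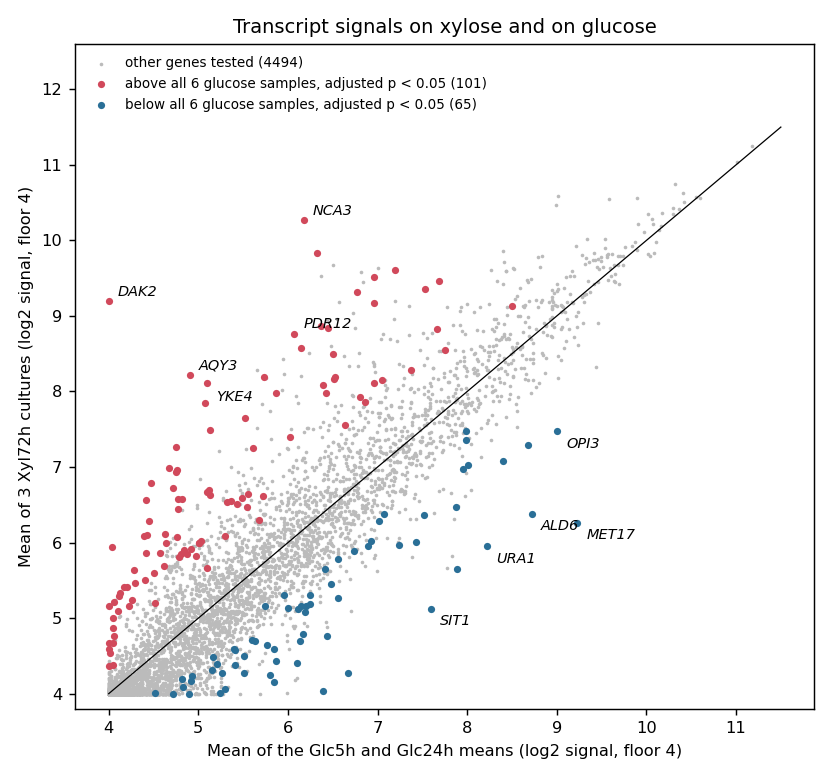
Mean log2 signal of the 3 xylose cultures against the mean of the Glc5h and Glc24h means, for 4660 genes. Points are genes, the line marks equal signals, and the 101 genes called and separated above (red) and the 65 below (blue) lie away from it, with DAK2 at the glucose floor.

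The gap, the distance from the lowest xylose culture to the highest glucose sample (or the reverse below), was at least 1 on the log2 scale for 15 of the 101 genes above and for 7 of the 65 below, with medians of 0.39 and 0.27. The widest belonged to DAK2 (YFL053W), the gene of a dihydroxyacetone kinase, which read 16, 16 and 16 in Glc5h, 16, 16 and 16.1 in Glc24h and 759.5, 453 and 588 in Xyl72h. The glucose samples were at or next to the floor, and no xylose culture came near them (at least log2 5.20, standard error 0.15, adjusted p = 8.47e-06). AQY3 (YFL054C), for a channel protein related to the glycerol channel Fps1, had the next gap of 2.07 and read 16, 16 and 33.5 in Glc5h, 40, 32.6 and 65.2 in Glc24h and 293, 274 and 329 in Xyl72h (at least log2 3.31, standard error 0.30, adjusted p = 0.00186). DAK2 and AQY3 are neighbours on the chromosome in the RefSeq annotation (assembly R64), and lie on opposite strands. Zinc transporter gene YKE4 (YIL023C) had the third widest gap, at 39.8, 38.7 and 34.7 in Glc5h, 33.7, 16 and 56.3 in Glc24h and 279, 233 and 324 in Xyl72h (at least log2 3.01, standard error 0.35, adjusted p = 0.00395). NCA3, for a protein of the SUN family, had the highest xylose signals of the 101, 1506, 1019 and 1224, against 16, 19.4 and 28.6 in Glc5h and 211, 129 and 590.1 in Glc24h (at least log2 4.09, standard error 0.45, adjusted p = 0.00308). SFK1, for a plasma membrane protein linked to phosphoinositide synthesis, and TDA1, for a protein kinase that acts on hexokinase Hxk2, were dim genes with tight replicates. They read 68.7, 54.8 and 62.2 and 65.3, 67.4 and 74 on xylose and at most 18.5 and 32.4 on glucose (at least log2 1.91, adjusted p = 0.000245, and at least log2 1.68, adjusted p = 0.000245). The genes YOR338W (104, 107 and 105 on xylose, at most 51.8 on glucose) and YCL049C (88, 106 and 104, at most 44.5) among the widest gaps have no role stated here.

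**Figure D2:**
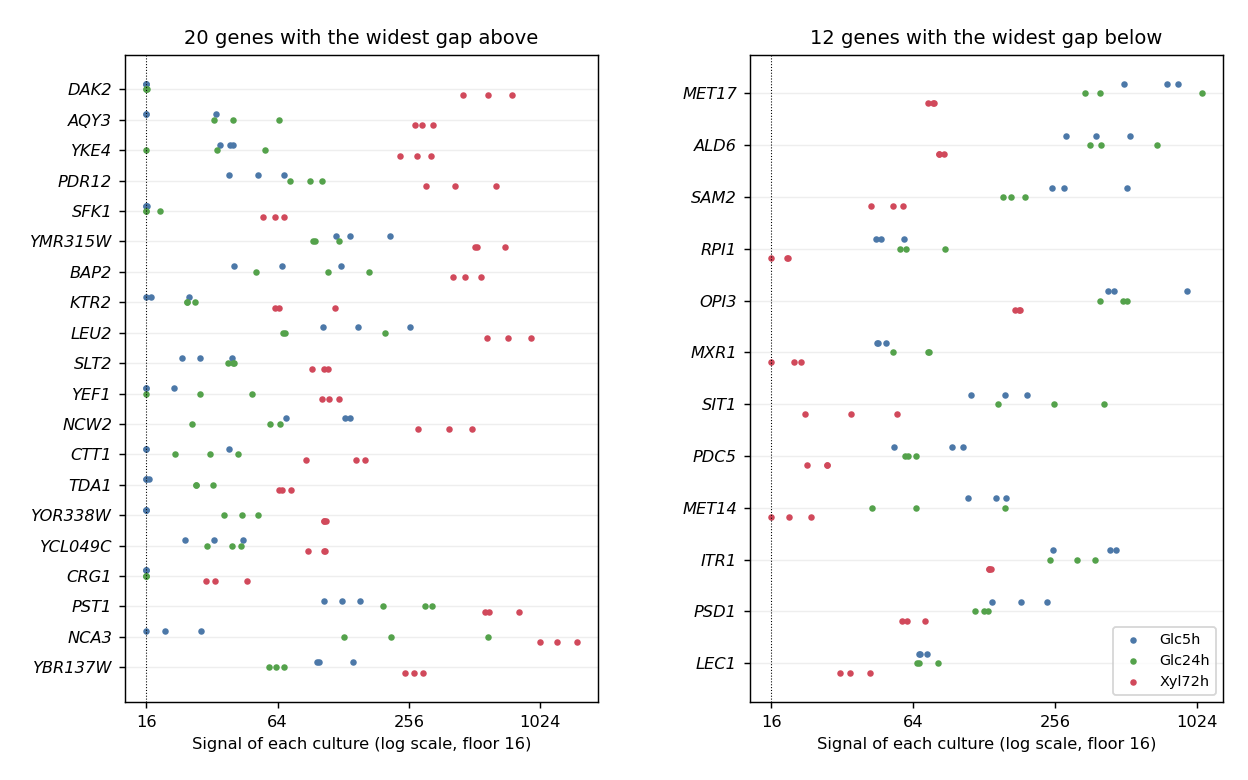
Signal of each culture in Glc5h, Glc24h and Xyl72h (log axis, dotted line at the floor of 16) for the 20 genes with the widest gap above and the 12 with the widest gap below. Each point is 1 culture, and the xylose points of each gene stand apart from all 6 glucose points, by 4.81 on the log2 scale for DAK2 and 2.12 for MET17.

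Adjacent genes recurred among the 166. In the RefSeq gene order, 5 pairs of neighbours above and 1 pair below were both called and separated in the same direction. Besides AQY3 and DAK2 these were BAT1 with CRG1, CRG1 with YHR210C, RIO1 with GCY1, TEA1 with YOR338W, and, below, CHO1 with GAL83. CRG1 (YHR209W), a methyltransferase gene, was at 16 in all 6 glucose samples and read 30.2, 46.2 and 33 on xylose (at least log2 1.16, adjusted p = 0.00404), on a probe set marked as shared or incomplete. With a floor of 32 the CRG1 call was lost. YHR210C read at most 22.7 on glucose and 38, 43.6 and 47.2 on xylose, and was chosen, like RIO1 and TEA1, after its values were seen. How often neighbours would share a direction in a list of this size was not tested.

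Lists of glycerol and NADPH metabolism held calls in both directions. Of 14 genes of glycerol and dihydroxyacetone metabolism, 3 were called higher (21.4%, against 4.06% of all genes tested), all 3 separated, and 1 was called lower (7.1%, against 3.63%, median difference of the list 0.66, against -0.07 over all genes). GCY1, for an aldo-keto reductase with glycerol dehydrogenase activity, read 17.8, 31.1 and 77.8 in Glc5h, 206, 245 and 259 in Glc24h and 379, 369.9 and 332 in Xyl72h (log2 1.99, standard error 0.40, adjusted p = 0.0263). Its xylose cultures lay above derepressed cells by a narrow gap of 0.36, and most of its range was between the glucose states. ASK10, for a regulator of Fps1, had a difference of 1.08 (adjusted p = 0.0311), while the glycerol transporter gene STL1, at 111, 98.4 and 64.6 in Glc24h, was at 16 in every Glc5h and Xyl72h sample. Of 16 other genes of NADPH and aldehyde oxidation, 3 were called higher (18.8%), 2 of them separated, and 1 was called lower (6.2%) and separated, with a median difference of 0.35. YMR315W, an NADPH-dependent oxidoreductase gene, read 137, 209.8 and 118 in Glc5h, 123, 94.9 and 92.6 in Glc24h and 707, 526 and 515 in Xyl72h, so that the lowest xylose culture was 2.45-fold above the highest glucose sample (log2 2.22, standard error 0.21, adjusted p = 0.00199). YEF1, for an NADH kinase that makes NADPH, read 16, 21.4 and 16 in Glc5h, 48.7, 16 and 28.3 in Glc24h and 102, 109.9 and 122 in Xyl72h (at least log2 2.32, standard error 0.32, adjusted p = 0.00656). ALD6, for the cytosolic aldehyde dehydrogenase that makes acetate and NADPH, ran the other way with 531, 381 and 284 in Glc5h, 691, 359 and 401 in Glc24h and 86.2, 82 and 82.2 in Xyl72h (log2 -2.34, standard error 0.26, adjusted p = 0.003). The mitochondrial aldehyde dehydrogenase gene ALD5 was called higher but overlapped with Glc5h (118, 69.5 and 103 on xylose, 60.9, 118 and 49.6 in Glc5h, log2 1.29, adjusted p = 0.0496), and lost its call with the replicate number as a block (adjusted p = 0.0796) and without xylose culture 0, 1 or 2, Glc5h culture 0 or 2 or Glc24h culture 0, 1 or 2 (up to 0.191). In a list of 10 endogenous xylose and aldo-keto reductase genes, GCY1 and the xylulokinase gene XKS1 were called higher and GRE2 lower, with a median difference of 0.27. GRE2, a methylglyoxal reductase gene, was below by a gap of only 0.13 (log2 -1.29, adjusted p = 0.0371). In the fit with the replicate number as a block the adjusted p of GRE2 was 0.0647. The calls of GCY1 (lost without xylose culture 0, 1 or 2, Glc5h culture 1 or Glc24h culture 0, 1 or 2, adjusted p up to 0.108), ASK10 (without xylose culture 0, 1 or 2, Glc5h culture 0 or 1 or Glc24h culture 1 or 2, up to 0.131) and GRE2 (without xylose culture 0, 1 or 2, Glc5h culture 0 or 1 or Glc24h culture 0 or 1, up to 0.147) depended on single samples, whereas DAK2, AQY3, YMR315W, YEF1 and ALD6 passed whichever of the 9 samples was left out.

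In the pentose phosphate pathway 3 of 14 genes were called higher (21.4%, against 4.06% of all genes tested) and none lower (at an unadjusted p under 0.05, 6 higher and 0 lower, median difference 0.43). Only 1 of the 14 was called and separated (7.1%, against 2.17%). GND2, the minor 6-phosphogluconate dehydrogenase, read 16, 16 and 30 in Glc5h, 133, 80.2 and 115 in Glc24h and 252, 135 and 241 in Xyl72h, and its lowest xylose culture was next to the highest derepressed one (gap 0.03, at least log2 2.14, standard error 0.30, adjusted p = 0.00818). The paralogues of transketolase and transaldolase, TKL2 (387, 236 and 264 on xylose and 276, 123 and 179 in Glc24h) and NQM1 (274, 171 and 209.9 and 186, 179 and 172), were called but overlapped with derepressed cells. Both read 16 to 20 in every Glc5h culture. The xylulokinase gene XKS1 read 104, 141 and 87.2 in Glc5h, 149, 101 and 101 in Glc24h and 248, 263 and 219 in Xyl72h (log2 1.12, standard error 0.19, adjusted p = 0.0163), higher in all 3 xylose cultures than in any glucose sample. Its probe set does not tell the native gene from the added copy, and its call was lost without xylose culture 0, 1 or 2 (adjusted p up to 0.0726). The endogenous aldose reductase gene GRE3 did not pass the test and its samples overlapped (log2 -0.03, adjusted p = 0.964). It was chosen after its values were seen.

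Genes of sugar uptake and of sugar phosphorylation and sensing were called in both directions. Of 18 hexose transporter genes on the list, only 11 had a probe set with 1 gene name. Among these HXT8, HXT14 and GAL2 were at the floor throughout, which left 8 tested, so the list reads a part of the family. Of the 8, 4 were called higher (50.0%, against 4.06% of all genes tested) and 1 lower (12.5%, against 3.63%), and HXT4 was the 1 member separated. HXT4, a transporter of intermediate affinity, read 69.1, 129 and 40.3 in Glc5h, 16, 16 and 16 in Glc24h and 193, 308 and 205 in Xyl72h (at least log2 2.77, standard error 0.34, adjusted p = 0.00458), so it was at the floor in derepressed cells and highest on xylose. HXT5, a transporter of slowly growing cells, was called higher but overlapped with derepressed cells (989, 559 and 809 on xylose, 1040.1, 455 and 767 in Glc24h), as was HXT7, whose signal cannot be told from that of its near-identical copy HXT6. Low-affinity HXT1 was called lower, with 19.4, 17.4 and 17.6 on xylose and 234, 387 and 137 in Glc5h (log2 -1.90, adjusted p = 0.0174). It overlapped with derepressed cells, so its xylose cultures lay below Glc5h only. The HXT1 call was lost without xylose culture 0, 1 or 2 (adjusted p up to 0.0746), with a floor of 4 and without the filter on dim probe sets. Of 19 genes of hexose phosphorylation, sensing and glucose repression, 3 were called higher and 3 lower (15.8% each, against 4.06% and 3.63% of all genes tested), 2 and 1 of them separated, and the median difference was 0.00. HXK1, the glucose-repressed hexokinase, read 16, 41.4 and 119 in Glc5h, 329.9, 269.8 and 243 in Glc24h and 818, 492 and 644 in Xyl72h (log2 2.54, standard error 0.55, adjusted p = 0.0348). All 3 xylose cultures lay above the derepressed ones, but the difference from Glc24h alone did not pass in limma (log2 1.20, adjusted p = 0.374). The HXK1 call was lost without xylose culture 0, 1 or 2, Glc5h culture 1 or Glc24h culture 0, 1 or 2 (adjusted p up to 0.139). Hexokinase gene HXK2 was called higher but stayed within the repressed range, at 394, 460.1 and 395 on xylose, 713, 612 and 335 in Glc5h and 36.1, 21.9 and 44.3 in Glc24h (log2 1.66, adjusted p = 0.0173, lost without xylose culture 0, 1 or 2, up to 0.0711). MTH1, for a repressor of hexose transporter genes that glucose signalling removes, was lowest in Glc5h (16, 16 and 16), higher in Glc24h (61.1, 43.2 and 39.5) and highest in Xyl72h (114, 92.8 and 81.3, at least log2 1.79, standard error 0.17, adjusted p = 0.00186), while GAL83, for a subunit that targets the Snf1 kinase, was lowest on xylose (28.4, 22.5 and 24.6, log2 -1.12, adjusted p = 0.00606). The other calls lower were REG2, for a regulatory subunit of the Glc7 phosphatase, at 16, 16 and 17.3 in Glc5h, 480.2, 343 and 389.7 in Glc24h and 47.5, 43.2 and 37.1 in Xyl72h (log2 -0.94, adjusted p = 0.00808), and STD1, the paralogue of MTH1, at 60.5, 46.2 and 51.2 in Glc5h, 22.1, 17.4 and 20.5 in Glc24h and 21.7, 22.9 and 17.9 in Xyl72h (log2 -0.64, adjusted p = 0.0336). On xylose REG2 lay between the glucose states, and its call was lost with a floor of 4. STD1 overlapped with derepressed cells, and its call was lost without xylose culture 0, 1 or 2 or Glc24h culture 0 or 2 (up to 0.127). Among 27 genes of glycolysis and fructose 2,6-bisphosphate, 4 were called higher (14.8%) and 2 lower (7.4%). The phosphofructokinase gene PFK2 was slightly above all glucose samples (log2 0.63, adjusted p = 0.0105), a call lost with quantile or cyclic loess normalization. PDC5, a minor pyruvate decarboxylase gene, was below at 104, 93.1 and 52.8 in Glc5h, 61.1, 65.5 and 59 in Glc24h and 27.5, 27.7 and 22.7 in Xyl72h (log2 -1.44, standard error 0.21, adjusted p = 0.00935).

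**Figure D3:**
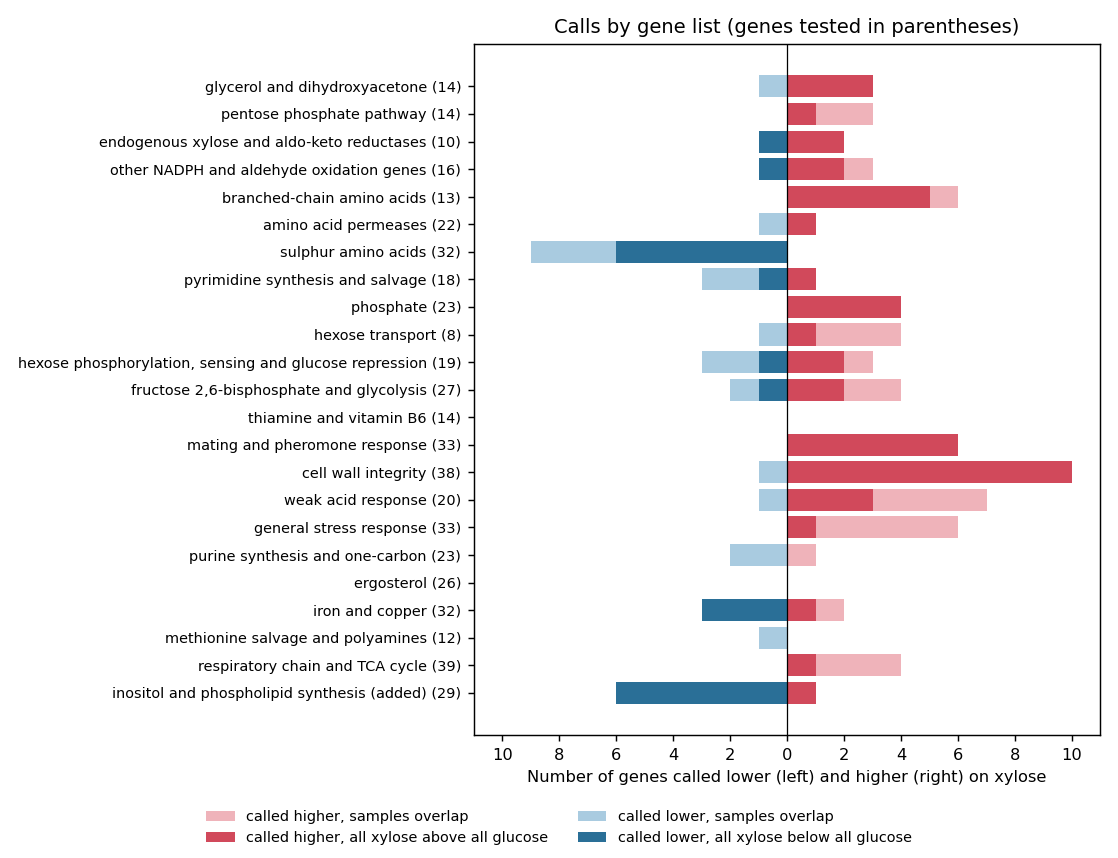
Number of genes called higher (right) and lower (left) on xylose at an adjusted p under 0.05 in each of 23 gene lists, with the genes tested in parentheses. Dark bars are genes whose 3 xylose cultures also lay outside all 6 glucose samples, such as 10 of 38 cell wall genes above and 6 of 32 sulphur genes below.

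The cell wall list had the most members above. Of 38 genes of the cell wall integrity pathway and its targets, 10 were called higher (26.3%, against 4.06% of all genes tested), all 10 of them separated, and 1 was called lower, the chitin transglycosylase gene UTR2, which overlapped at the floor. The median difference of the list was 0.56. This pathway runs from sensors in the plasma membrane through protein kinase C to the MAP kinase Slt2, which activates transcription of wall protein genes. The sensor gene MID2 read 31.7, 29.1 and 33.4 in Glc5h, 31.2, 30.8 and 36.9 in Glc24h and 59.4, 84 and 52 in Xyl72h (log2 0.99, standard error 0.16, adjusted p = 0.0128), and SLT2 itself 28.1, 23.2 and 39.4 in Glc5h, 40.6, 37.8 and 39.8 in Glc24h and 104, 109 and 92 in Xyl72h (log2 1.58, standard error 0.16, adjusted p = 0.00263). Both stayed in a narrow range over the glucose samples. PST1, for a wall protein induced by damage to the wall, read 126, 153 and 104 in Glc5h, 304, 195 and 328 in Glc24h and 822, 571 and 595 in Xyl72h (log2 1.83, standard error 0.22, adjusted p = 0.00425), and NCW2, for a wall protein anchored by glycosylphosphatidylinositol, 137, 131 and 69.7 in Glc5h, 65.7, 26 and 59.2 in Glc24h and 391, 499 and 283 in Xyl72h (log2 2.43, standard error 0.37, adjusted p = 0.00993). Mannosyltransferase gene KTR2 was close to the floor on glucose and read 62.1, 117 and 64.7 on xylose (at least log2 1.83, standard error 0.24, adjusted p = 0.00564). PIR3, for a protein linked to the wall glucan, read 16, 16 and 24.8 in Glc5h, 607, 204 and 337 in Glc24h and 1297, 718 and 810.1 on xylose (at least log2 3.51, adjusted p = 0.00261). KNH1, CHS7, PRM5 and PRM10 were the other 4, with differences of 1.10, 0.62, 2.18 and 1.76. PIR3, KNH1 and CHS7 are named to complete the list, after their values were seen. The aspartyl protease gene YPS3 of the cell surface, chosen in the same way, had 191, 249 and 76.4 on xylose and at most 47.9 on glucose (at least log2 2.51, adjusted p = 0.0204). WSC4, of the WSC family, was also outside the list and chosen after its values were seen, and went the other way. It read 32.4, 27.2 and 24 on xylose and at least 49 on glucose (log2 -1.38, adjusted p = 0.0191, gap 0.60). The WSC4 call was lost without xylose culture 0, 1 or 2 (up to 0.0877), and WSC4 is not counted among the 137 named genes below. Without xylose culture 0 the adjusted p rose to 0.0506 for MID2, 0.0527 for NCW2 and 0.0527 for PRM10. NCW2 was also lost without xylose culture 1, PRM5 without xylose culture 1 or 2 (up to 0.074), CHS7 without xylose culture 0, 1 or 2 or Glc5h culture 0 or 1 (up to 0.14) and YPS3 without xylose culture 0 or 1 or Glc5h culture 0 (up to 0.0952).

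The strain is MATα. Of 33 tested genes of mating and the pheromone response, 6 were called higher (18.2%, against 4.06% of all genes tested), all 6 separated. None was called lower (at an unadjusted p under 0.05, 11 higher and 0 lower). PRM5 and PRM10 belong to this list as well as to that of the cell wall. The others were PRM1, which acts in membrane fusion, AFR1, which acts in mating projections, FIG2, an adhesin gene, and PRM8. AFR1 read 16, 16 and 19.6 in Glc5h, 37.7, 37.9 and 32.8 in Glc24h and 57.5, 71.5 and 62.2 in Xyl72h (at least log2 1.35, standard error 0.12, adjusted p = 0.00155), and PRM1 16, 16 and 18.8 in Glc5h, 59.3, 16 and 20.8 in Glc24h and 87.2, 119 and 82.7 in Xyl72h (at least log2 2.16, standard error 0.39, adjusted p = 0.0176). FIG2 had 25.2, 64.8 and 31.7 on xylose and 16 to 20.5 on glucose (at least log2 1.16, adjusted p = 0.0467), with an adjusted p of 0.0605 in the block fit and 0.116 with the glucose samples averaged by culture. The calls of PRM1 and PRM8 were lost without xylose culture 0, 1 or 2 (adjusted p up to 0.0737 and 0.0814), and that of FIG2 without xylose culture 2, Glc5h culture 0, 1 or 2 or Glc24h culture 0, 1 or 2 (up to 0.112). The a-factor receptor gene STE3 and the pheromone gene MF(ALPHA)2 did not pass, and their xylose cultures overlapped with glucose samples. STE3 read 113, 106 and 48.8 in Glc5h, 178, 101 and 54.3 in Glc24h and 207, 282 and 139.6 in Xyl72h (adjusted p = 0.168). MF(ALPHA)2 read 333, 220 and 130.5 in Glc5h, 124, 26.1 and 16.5 in Glc24h and 324, 455 and 396 in Xyl72h (adjusted p = 0.0817). The difference of MF(ALPHA)2 from Glc5h alone did not pass in limma either (log2 0.87, adjusted p = 0.416). STE3 passed in the block fit (adjusted p = 0.0331), and MF(ALPHA)2 without Glc24h culture 0 (adjusted p = 0.0126) or with a mean signal of at least 32 (adjusted p = 0.0313). Both were chosen after their values were seen. The median difference over the list was 0.38.

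Among genes of leucine, isoleucine and valine synthesis, 6 of 13 tested were called higher (46.2%, against 4.06% of all genes tested) and 0 lower (8 and 0 at an unadjusted p under 0.05, median difference 1.15), and 5 of the 6 were separated. ILV2, for acetolactate synthase at the head of the pathway, read 177, 205 and 65.3 in Glc5h, 57.2, 74.4 and 60 in Glc24h and 325, 273 and 281 in Xyl72h (log2 1.67, standard error 0.34, adjusted p = 0.0286). LEU9, the minor isopropylmalate synthase gene, read 41.2, 47.8 and 43.6 on xylose and at most 40.3 on glucose (at least log2 1.16, adjusted p = 0.0307). For LEU1, isopropylmalate isomerase, the lowest xylose culture (581) was only just above the highest glucose sample (547), and for BAT1, the mitochondrial aminotransferase, the distance was likewise small (410.3 and 352). Both were low in Glc24h, at 55.7, 61.1 and 57.5 for LEU1 and 20.9, 29.4 and 32.5 for BAT1. LEU2, next in the pathway, was clear of every glucose sample, at 149, 258 and 103 in Glc5h, 69.4, 67.9 and 199 in Glc24h and 926, 587 and 729 in Xyl72h (log2 2.56, standard error 0.43, adjusted p = 0.0141). The strain carries a mutant leu2 allele, and the signal measures the transcript only. In limma all 5 separated genes passed against Glc24h alone. Against Glc5h alone only LEU2 passed (adjusted p = 0.0157). The others did not (adjusted p = 0.0761 for ILV2, 0.0598 for LEU9, 0.126 for LEU1 and 0.0544 for BAT1). Of 22 amino acid permease genes, 1 was called higher and 1 lower (4.5% each, close to the 4.06% and 3.63% of all genes tested), and the median difference was -0.11. MUP3, a methionine permease gene, was the 1 lower and overlapped at the floor (log2 -1.08, adjusted p = 0.0122). BAP2, for the permease of leucine, isoleucine and valine, was the 1 higher, at 40.4, 125 and 67.3 in Glc5h, 109, 50.7 and 168 in Glc24h and 549, 406 and 462 in Xyl72h (log2 2.51, standard error 0.45, adjusted p = 0.0174). Calls were lost for ILV2 without xylose culture 0, 1 or 2 or Glc24h culture 0, 1 or 2 (adjusted p up to 0.119), for LEU9 without xylose culture 0, 1 or 2, Glc5h culture 0 or Glc24h culture 0, 1 or 2 (up to 0.111), for BAP2 without xylose culture 0, 1 or 2 (up to 0.0817), for LEU2 without xylose culture 0 or 2 (up to 0.0705) and for LEU1 without xylose culture 0 (0.0591).

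Further groups above were small. In the list of phosphate genes 4 of 23 were called higher (17.4%, against 4.06% of all genes tested), all separated, and 0 lower (4 and 1 at an unadjusted p under 0.05). They were PHO84, the high-affinity phosphate transporter, at 16, 16 and 17.2 in Glc5h, 62.1, 66.9 and 22.2 in Glc24h and 175, 100.1 and 111 in Xyl72h (at least log2 2.20, standard error 0.37, adjusted p = 0.0141), the acid phosphatase gene PHO5 (47.3, 54.8 and 43.4 on xylose, at most 32.3 on glucose, at least log2 1.09, adjusted p = 0.00878), the phosphatase gene PHM8 (at least 1.35) and the glycerophosphocholine phosphodiesterase gene GDE1 (at least 1.03). The median of the list was 0.16. All 4 passed in limma against Glc5h alone, but none passed against Glc24h alone. The adjusted p against Glc24h was 0.102 for PHO84, 0.059 for PHO5, 0.0757 for PHM8 and 0.132 for GDE1. Of 20 genes of the response to weak acids, 7 were called higher (35.0%) and 1 lower (5.0%), with 3 separated above. The 1 called lower was ADY2, whose samples overlapped, and ATO2 was called higher but overlapped as well. PDR12, for the efflux pump of weak organic acids, read 51.9, 68.6 and 38.5 in Glc5h, 73.3, 102 and 89.8 in Glc24h and 642, 308 and 416 in Xyl72h (log2 2.69, standard error 0.27, adjusted p = 0.00242), with 642 in xylose culture 0 and a gap of 1.59. ATO3, of a family of acetate and ammonium transporters, read 18.9, 39.7 and 18.2 in Glc5h, 76.9, 41 and 42.6 in Glc24h and 276, 129 and 165 in Xyl72h (log2 2.37, standard error 0.36, adjusted p = 0.0105), and YRO2 892, 633 and 618 on xylose against 546, 340.4 and 468 in Glc24h. Of 33 general stress genes 6 were called higher (18.2%) and 0 lower, and the cytosolic catalase gene CTT1 was the only one of the 6 separated (3.0% of the list, close to the 2.17% of all genes tested), at 16, 16 and 38.2 in Glc5h, 31.3, 42.1 and 21.6 in Glc24h and 160.4, 86.7 and 146 in Xyl72h (at least log2 2.31, standard error 0.37, adjusted p = 0.0122). Of 39 genes of the respiratory chain and TCA cycle 4 were called higher (10.3%, against 4.06% of all genes tested) and 0 lower. NDE1, the external NADH dehydrogenase gene, was the 1 separated, which at 2.6% of the list is close to the 2.17% of all genes tested (528, 422 and 421 on xylose, 394, 298 and 344 in Glc24h, log2 1.17, adjusted p = 0.00457). Without xylose culture 0 or 2 the adjusted p was up to 0.0688 for PHO84, without xylose culture 0 or 1 up to 0.0746 for PHM8, and without xylose culture 0, 1 or 2 up to 0.0786 for GDE1. Without xylose culture 0 it was 0.0506 for ATO3, and without xylose culture 0 or 2 up to 0.0627 for CTT1.

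**Figure D4:**
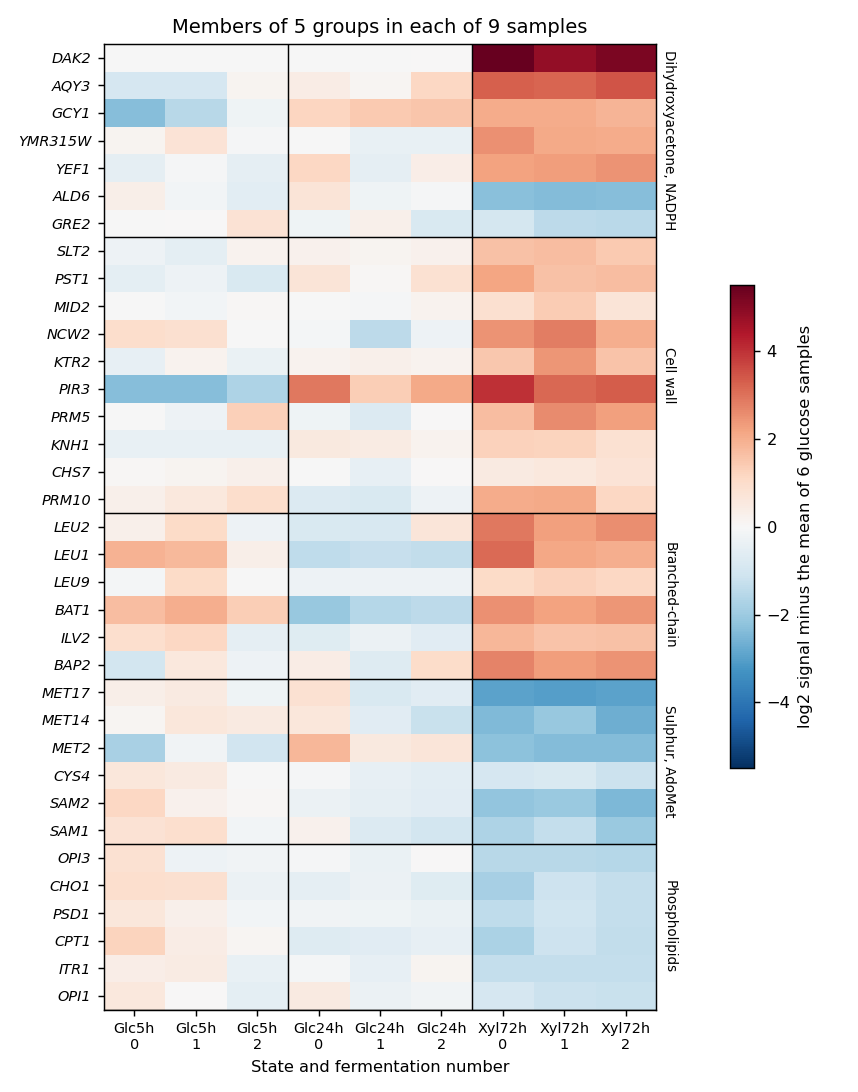
Log2 signal of each of the 9 samples (columns) minus the mean of the 6 glucose samples, for members of 5 groups (rows), from blue (lower) to red (higher). AdoMet is S-adenosylmethionine. The 3 xylose columns are red for DAK2, the cell wall and the branched-chain genes and blue for ALD6, GRE2, the sulphur and the phospholipid genes.

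Below the glucose samples, sulphur amino acid genes were the most numerous fixed list. Of 32 tested, 9 were called lower (28.1%, against 3.63% of all genes tested) and 0 higher (15 and 2 at an unadjusted p under 0.05), and 6 of the 9 were separated. The median difference was -0.74. MET17, for the enzyme that builds homocysteine from sulphide, had the widest gap below and read 762, 852 and 503 in Glc5h, 1067, 341 and 395 in Glc24h and 78.5, 73.9 and 77.6 in Xyl72h (log2 -2.97, standard error 0.36, adjusted p = 0.00458). The 3 xylose cultures were nearly equal, while the glucose samples ranged from 341 to 1067. MET14, adenylylsulphate kinase of sulphate assimilation, read 109, 158 and 143 in Glc5h, 157, 65.8 and 42.9 in Glc24h and 19, 23.7 and 16 in Xyl72h (at most log2 -2.39, standard error 0.38, adjusted p = 0.0122), and MET2, homoserine acetyltransferase, 24.6, 73.6 and 40.2 in Glc5h, 300.3, 123 and 133 in Glc24h and 17.4, 16 and 16 in Xyl72h (at most log2 -2.36, standard error 0.39, adjusted p = 0.0143). CYS4, of the branch to cysteine, fell less (131, 139 and 109.6 on xylose, log2 -0.97, adjusted p = 0.0209). SAM2 and SAM1 encode the S-adenosylmethionine synthetases, whose product donates methyl groups. SAM2 read 514, 279 and 249 in Glc5h, 191, 166 and 154 in Glc24h and 52.3, 57.7 and 42.4 in Xyl72h (log2 -2.23, standard error 0.24, adjusted p = 0.00286), and SAM1 117, 128 and 62.2 in Glc5h, 79.5, 40.7 and 34.1 in Glc24h and 21.1, 27.2 and 16.7 in Xyl72h (log2 -1.69, standard error 0.34, adjusted p = 0.0267). The 2 genes are close copies, and how far a probe set of the one also reads the other was not tested. MXR1, for methionine sulphoxide reductase, was not on the list and had the sixth widest gap below, at 45, 49.3 and 45.6 in Glc5h, 74.9, 73.7 and 52.3 in Glc24h and 16, 19.9 and 21.4 in Xyl72h (at most log2 -1.55, standard error 0.15, adjusted p = 0.00223). MET17, SAM2 and MXR1 passed whichever sample was left out. Calls were lost for MET14 without xylose culture 0 or 2 (adjusted p up to 0.0606), for MET2 without xylose culture 0, 1 or 2 (up to 0.0629), for CYS4 without xylose culture 0, 1 or 2 (up to 0.093) and for SAM1 without xylose culture 0, 1 or 2, Glc5h culture 0 or 1 or Glc24h culture 1 (up to 0.12).

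A list of inositol and phospholipid synthesis, put together after the values had been seen, held as many members below as the sulphur list. Of 29 tested, 6 were called lower (20.7%, against 3.63% of all genes tested), all 6 separated, and 1 was called higher (3.4%, against 4.06%), with a median difference of -0.31. As the list was made because several of the widest gaps belonged to it, these counts are a description. OPI3, for the methyltransferase that completes phosphatidylcholine from phosphatidylethanolamine with S-adenosylmethionine, read 922, 428 and 456 in Glc5h, 498, 398 and 518 in Glc24h and 181, 179.9 and 172 in Xyl72h (log2 -1.54, standard error 0.25, adjusted p = 0.0122). CHO1, phosphatidylserine synthase, read 324, 315 and 137 in Glc5h, 123, 138 and 109 in Glc24h and 49, 77.3 and 70.3 in Xyl72h (log2 -1.42, standard error 0.30, adjusted p = 0.0321), and PSD1, the mitochondrial phosphatidylserine decarboxylase, 236, 183 and 138 in Glc5h, 133, 128 and 117 in Glc24h and 57.1, 71.6 and 60 in Xyl72h (log2 -1.27, standard error 0.17, adjusted p = 0.00656). These 3 enzymes act in 1 route from CDP-diacylglycerol to phosphatidylcholine. CPT1, cholinephosphotransferase of the parallel route from choline, had 70.4, 107 and 92.1 on xylose and at least 145 on glucose (log2 -1.40, adjusted p = 0.0174). ITR1, the main inositol transporter, read 436, 463 and 250.1 in Glc5h, 315, 243 and 376 in Glc24h and 134, 134 and 137 in Xyl72h (log2 -1.32, standard error 0.22, adjusted p = 0.0149). OPI1, the repressor of the phospholipid genes that respond to inositol, was itself below (38.8, 31.8 and 31.4 on xylose, at least 50.0 on glucose, log2 -1.11, adjusted p = 0.0496). INM1, for inositol monophosphatase, was the 1 member called higher (29, 42.7 and 32.1 on xylose, at least log2 0.99, adjusted p = 0.00529), a call lost with a floor of 32. The inositol synthase gene INO1 read 58.3, 39.8 and 34.6 in Glc5h, 308, 224 and 223 in Glc24h and 27.9, 58.1 and 58.7 in Xyl72h. Its xylose cultures overlapped with Glc5h, and the difference from Glc5h alone did not pass in limma (log2 0.08, adjusted p = 0.92). Xylose lay below Glc24h only. Against the mean of both glucose states INO1 just missed the threshold (adjusted p = 0.0504), which it passed with quantile or cyclic loess normalization, a floor of 32, a mean signal of at least 32 or hybridisation 2.1 alone (adjusted p from 0.0289 to 0.0445). OPI1 and INO1 were named after their values were seen. Of the genes named, PSD1 and INM1 passed in all fits without 1 sample. OPI3 and ITR1 were lost without xylose culture 0, 1 or 2 (adjusted p up to 0.0582 and 0.0686), CPT1 without xylose culture 0 or 2 (up to 0.0813), CHO1 without xylose culture 0, 1 or 2, Glc5h culture 0 or 1 or Glc24h culture 0, 1 or 2 (up to 0.135) and OPI1 without xylose culture 0, 1 or 2, Glc5h culture 0 or 1 or Glc24h culture 0, 1 or 2 (up to 0.166).

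Iron and pyrimidine genes were also among the members below. Of 32 iron and copper genes, 3 were called lower and separated (9.4%, against 3.63% of all genes tested called lower) and 2 were called higher (6.2%, against 4.06%, median difference -0.35). SIT1, for a siderophore transporter, read 112, 194 and 157 in Glc5h, 410.3, 254 and 146 in Glc24h and 54.8, 22.2 and 34.9 in Xyl72h (log2 -2.47, standard error 0.40, adjusted p = 0.0122), FET4, the low-affinity iron transporter, 71, 125 and 72.7 in Glc5h, 55.2, 31.3 and 35.6 in Glc24h and 16, 24.7 and 25.5 in Xyl72h (at most log2 -1.43, standard error 0.28, adjusted p = 0.0219), and FET3, the copper oxidase of high-affinity uptake, 236, 589 and 399 in Glc5h, 591, 378 and 385 in Glc24h and 225, 113 and 152 in Xyl72h (log2 -1.39, standard error 0.34, adjusted p = 0.049). FET3 had a gap of only 0.07 and an adjusted p of 0.0785 in the block fit. ISU2, for a scaffold on which iron-sulphur clusters are built, was above instead, at 110.0, 139.9 and 80.1 in Glc5h, 71.4, 60.8 and 75.7 in Glc24h and 258, 238 and 261 in Xyl72h (log2 1.55, standard error 0.17, adjusted p = 0.00346). In pyrimidine synthesis URA1, dihydroorotate dehydrogenase, was the 1 separated member of 3 called lower among 18 (16.7%), and the uracil permease gene FUR4 the 1 called higher (5.6%), with 32.3, 33 and 32.3 in Glc5h, 30.1, 31.1 and 38 in Glc24h and 64.9, 68.9 and 61 in Xyl72h (log2 0.99, standard error 0.10, adjusted p = 0.0026). FUR4 read 30.1 to 38.0 over the glucose samples, and its 3 xylose cultures lay close together. RPI1, for a regulator linked to the Ras pathway, read 46.7, 44.7 and 58.7 in Glc5h, 87.6, 56.3 and 59.6 in Glc24h and 18.9, 16 and 18.6 in Xyl72h (at most log2 -1.69, standard error 0.17, adjusted p = 0.00242). Without xylose culture 1 or 2 the adjusted p of SIT1 was up to 0.057, without xylose culture 0, 1 or 2 that of FET4 up to 0.0969, and without xylose culture 0, 1 or 2, Glc5h culture 1 or 2 or Glc24h culture 0, 1 or 2 that of FET3 up to 0.164.

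Of the lists followed, those of ergosterol synthesis (26 genes) and of thiamine and vitamin B6 (14) had no call in limma. At an unadjusted p under 0.05 they had 3 higher and 2 lower, and 4 higher and 2 lower. Purine synthesis (23 tested) and methionine salvage and polyamines (12) had calls, 1 higher and 2 lower, and 1 lower, but no separated member.

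The glucose states entered the rule only through their extremes, and how the 166 genes differed between them varied widely. Of the 101 above, 63 were not called different between Glc24h and Glc5h, 29 were higher in Glc24h and 9 lower, where 15.8% and 20.9% of all genes tested were called. Of the 65 below, 46 were not called different, 1 was higher and 18 lower. Genes with a wide spread over the glucose samples are less easily separated, so these counts are a description. PIR3, NCA3 and ISF1 above had the steepest rise between the glucose states (4.23, 3.61 and 3.47), and BAT1, LEU1 and HXT4 the steepest fall (-3.38, -2.66 and -2.15). ISF1 was chosen after its values were seen. MET2 was the 1 gene below that was higher in Glc24h (2.02).

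**Figure D5:**
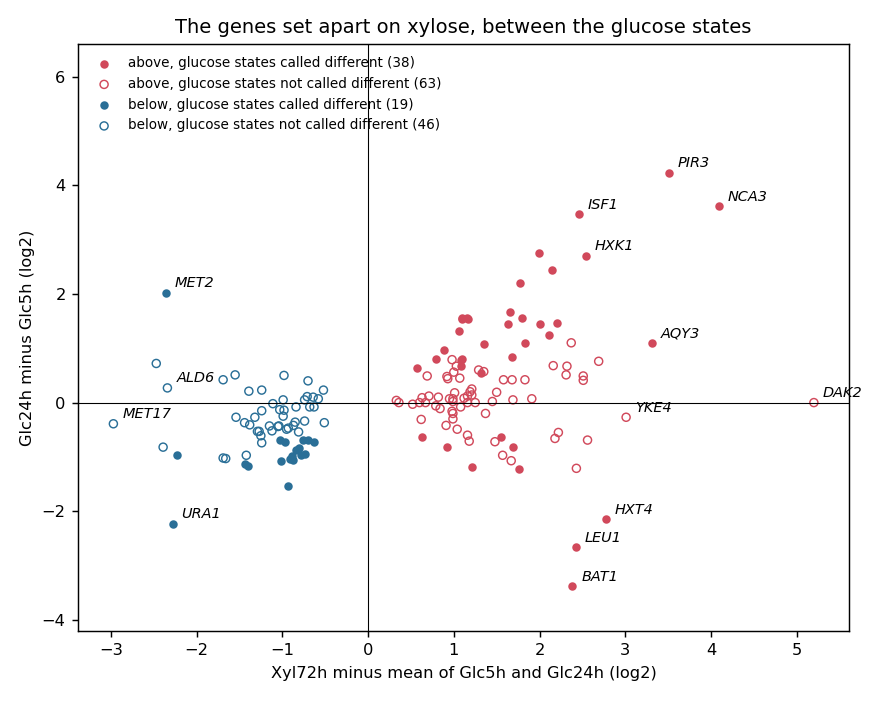
Difference between derepressed and repressed glucose cells (Glc24h minus Glc5h, log2) against the difference of xylose from their mean, for the 166 genes called and separated. Filled points are called different between the glucose states, 38 above and 19 below, and open points are not.

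Levels also differed between the directions. The mean xylose signal of the 101 genes above ran from 20.6 to 1234 (median 95.0), and 54 of them had at least 1 glucose sample at the floor, so their differences are lower bounds. For the 65 below it ran from 16 to 179 (median 34.9), with at least 1 xylose culture at the floor for 11. The median over all genes tested was 34.4. At the edge of the rule, DAL82 and ICT1 were just inside above, with lowest xylose values of 53.1 and 223 against highest glucose values of 52.7 and 221, and LYS21 and GPG1 just outside (209.5 against 209.9, and 357 against 363). Below, RKM5 and RQC1 were just inside, with highest xylose values of 23.5 and 27.2 against lowest glucose values of 23.7 and 27.3, and YJL193W and YNL108C were just outside because the 3 Glc24h samples and the xylose cultures were all at 16.

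The genes of which the strain carries mutant alleles, and XKS1, of which it carries an added copy, were also read, as a description. LEU2 and XKS1 are described above. TRP1 was separated above (37.4, 40.4 and 81.1 in Glc5h, 48.8, 73.7 and 73.9 in Glc24h and 86.7, 107 and 152 in Xyl72h) without a call (adjusted p = 0.096), and passed in the block fit (adjusted p = 0.0246). HIS3 overlapped (log2 0.27, adjusted p = 0.325), and URA3 was at the floor on every array.

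Many of the calls depended on single xylose cultures. All 101 genes above and all 65 below kept their direction in every fit that left out 1 of the 9 samples. The rule of separation fixes this in advance, so it is no support. Of the 101 the number still called was 50, 60 and 57 without xylose cultures 0, 1 and 2. Of the 65 it was 17, 26 and 17. Left out singly, the glucose samples kept 80 to 94 and 43 to 62 calls. In all 9 such fits 47 genes above and 16 below passed. With the 2 glucose times of a culture averaged, 3 cultures against 3, 88 of the 101 and 55 of the 65 passed. The Glc24h array of fermentation 1 had a signal ratio of 10.28 between the 3' and 5' probe sets of the actin gene, against 1.858 to 2.767 over the Glc5h and Xyl72h arrays, and without that sample 81 and 43 passed.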

How the data were processed

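Transcript levels were measured on 15 Affymetrix Yeast Genome S98 arrays. The methods of the study describe Robust Multichip Average values on a log2 scale, whereas the values deposited by the authors and used here are intensities on a linear scale for 9335 probe sets, as Affymetrix MicroArray Suite writes them, not logged and not quantile normalised, and no column was left unmatched to an array. The times are those of the sample titles, since the treatment times in the labels differ for some samples.

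After removal of 60 control probe sets, arrays were brought to a common 75th percentile (51.08, the median over arrays), signals under 16 were set to 16, log2 was taken and the 3 hybridisations of fermentation 2 were averaged. Probe sets at the floor on every array were left out, which leaves 5877. The 3 states were fitted with limma 3.58.1 (lmFit and eBayes, in R 4.3.3), two-sided, with Benjamini-Hochberg adjustment over the 5877. The floor sets the spread to 0 where a state lies on it, which can make p-values too small. Names come from the platform annotation, updated by RefSeq gene identifier: 6504 probe sets have 1 gene, 328 several and 2443 none, and the first cover 5656 genes. A gene was represented by 1 probe set, a plain one before one marked as shared or incomplete, then the one with the highest mean. Gene order came from RefSeq (assembly R64). Figures were drawn with matplotlib 3.10.9.

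The genes named were the 20 above and 12 below with the widest gap among those called and the called members of the lists (up to 6 separated and 3 overlapping per list). HIS3, LEU2, TRP1, URA3 and XKS1 and the genes at the edge of the rule were named as well. The members and lists were chosen with earlier results of these data known. Samples of a state come from separate cultures, but Glc5h and Glc24h of 1 number are 2 times of the same culture. As a check of pairing, the deviations of samples with the same number from their state means correlated at 0.11 to 0.284 between Glc5h and Xyl72h and at 0.529 to 0.577 between Glc24h and Xyl72h, over the tested probe sets. Between Glc5h and Glc24h of 1 culture they correlated less, at 0.0204 to 0.26. As every correlation between glucose and xylose cultures was over 0.1, the number may pair them, although no label says that they share a day or batch. The main fit held the state only and left this pairing out, and a fit with the replicate number as a block was an alternative. The other alternatives were the scaling, the floor, the filter, hybridisation 2.1 alone, averages by culture, culture as a random block, limma-trend, other thresholds and leaving out each sample. The number of arrays and the 50.6% to 53.5% of values under 16 on each array limit the precision.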

Additional observations from a re-analysis of the deposited data

Results flagged for a closer look

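For 34 of the named genes called and separated, the distance from xylose differed between the glucose states, by limma's test of Glc24h minus Glc5h (adjusted p under 0.05). The xylose cultures are the same in both distances. Among genes above, Glc24h lay nearer to xylose, by log2 4.23 for PIR3, 3.61 for NCA3, 3.47 for ISF1, 2.75 for GCY1, 2.70 for HXK1, 2.44 for GND2, 2.20 for YRO2, 1.56 for MTH1, 1.55 for ICT1, 1.53 for NDE1, 1.46 for PHO84, 1.44 for YOR338W, 1.31 for DAL82, 1.25 for BDH1, 1.10 for AQY3, 1.09 for PST1, 1.08 for AFR1, 0.83 for TDA1, 0.80 for KNH1 and 0.67 for PHO5. Glc24h lay farther from xylose than Glc5h did for BAT1 (-3.38), LEU1 (-2.66), HXT4 (-2.15), PRM10 (-1.22), YBR137W (-0.81), ISU2 (-0.64) and PFK2 (-0.63). Among genes below, Glc24h lay nearer to xylose for URA1 (-2.23), CPT1 (-1.17), FET4 (-1.13), SAM2 (-0.96), RKM5 (-0.87) and CYS4 (-0.72), and farther for MET2 (2.02). With 3 cultures a state, samples far from their group were not searched for.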

How the results depend on the processing

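Of the 137 named genes, the 1 that changed direction under an alternative was GRE3, which was not called: 0.09 with reference gene scaling, 0.03 and 0.07 without Glc24h culture 0 or 2 and 0.20 without xylose culture 1 (-0.22 without xylose culture 0), on the log2 scale. Of 2995 values of named genes under the alternatives, 2540 kept direction and side of the threshold, 441 lost the call and 10 gained it. The called genes numbered 189 higher and 169 lower, with 101 separated above and 65 below among them. Without the filter on dim probe sets they were 115 and 86, with 65 and 30 separated. Called against each glucose state by itself were 48 and 20, all separated. With 3 culture averages against 3, all 189 and 195 called genes were separated, and 570 and 924 of all genes, since the glucose spread is then narrower by construction. With reference gene scaling, which shifted the median of all genes by 0.126, 95 were called lower, with 69.4% of the calls higher instead of 52.8%. At an unadjusted p under 0.01, 283 were lower, and with a floor of 32, 76 of all genes were separated below instead of 116.

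Leaving out 1 sample gave 86 to 242 genes higher and 33 to 306 lower, of which 54 to 112 and 21 to 89 were separated. Of all genes, 159 to 212 were then separated above and 133 to 192 below, with fewer samples to clear. The fit without Glc5h culture 2 gave the 306, and the one without xylose culture 0 the 33, and their causes were not tested. With the replicate number as a block, 240 were higher and 198 lower, 105 and 64 of them separated, and 97 of the 101 and 58 of the 65 were kept. Among the genes named, the block ended the calls of ALD5, FET3, FIG2, GRE2, GLR1, LYS21, MET7 and SDH1 and added those of STE3 and TRP1. Without a genome, the motif shares in promoters were not run. Weak signals limit the rest: 996 genes were at the floor throughout.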

Other observations

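Members outside the lists, chosen after their values were seen, included further metabolic and regulatory genes. BDH1, for butanediol dehydrogenase, read 30.9, 45.9 and 38.4 in Glc5h, 106, 96.6 and 71.7 in Glc24h and 449, 159 and 227 in Xyl72h (log2 2.11, adjusted p = 0.00993), with the 3 xylose cultures spread widely. GLY1, for threonine aldolase, read 114, 129 and 88.2 in Glc5h, 142, 88.2 and 150.2 in Glc24h and 282, 196 and 229 in Xyl72h (log2 1.01, adjusted p = 0.0348). MCH5, for the riboflavin transporter, read 16, 33.3 and 16.8 in Glc5h, 16.4, 21.7 and 27.7 in Glc24h and 57.5, 96.1 and 57 in Xyl72h (at least log2 1.69, adjusted p = 0.0185). RIM21, for a sensor of alkaline pH, read 35.4, 44.2 and 39 on xylose and at most 21.2 on glucose (at least log2 1.19, adjusted p = 0.00223). Below, the linker histone gene HHO1 read 77.3, 58.1 and 79.7 in Glc5h, 61.6, 46.2 and 35.2 in Glc24h and 23.1, 24.9 and 24.4 in Xyl72h (log2 -1.25, adjusted p = 0.00952), and BNA3, for an aminotransferase of kynurenine metabolism, 40.9, 42.4 and 36.8 in Glc5h, 55.3, 35.6 and 23.6 in Glc24h and 16, 16.1 and 16 in Xyl72h (at most log2 -1.24, adjusted p = 0.0218). NRG2, for a repressor of glucose-repressed genes, was also below (22.3, 27.6 and 32.7 on xylose, at least 35.0 on glucose, log2 -1.66, adjusted p = 0.024), as was the glutathione reductase gene GLR1 (50, 69.6 and 60.3, at least 72.5, log2 -0.85, adjusted p = 0.0498). GLR1 had a gap of only 0.06, and its call was lost with the replicate number as a block (adjusted p = 0.0522), without xylose culture 0, 1 or 2, Glc5h culture 0 or 1 or Glc24h culture 1 or 2 (adjusted p up to 0.192) and with 8 other alternatives. BDH1 and RIM21 passed whichever sample was left out. Calls were lost for GLY1 without xylose culture 0, 1 or 2, Glc5h culture 0 or Glc24h culture 0 (adjusted p up to 0.142), for MCH5 without xylose culture 0, 1 or 2 (up to 0.0711), for HHO1 without xylose culture 0 (0.0515), for BNA3 without xylose culture 0, 1 or 2 or Glc5h culture 0 (up to 0.0906) and for NRG2 without xylose culture 0, 1 or 2, Glc5h culture 0 or 1 or Glc24h culture 1 (up to 0.11).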
